A study of Mus musculus with 8 samples.

Results

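The collagen chains of mouse dental pulp (DP) were examined as a family. Every gene of the expression table whose symbol has the form of a collagen chain, "Col" with a type number, "a" and a chain number, was taken, and 35 of the 12148 genes met that rule. They fall into 11 fibrillar chains, 7 chains of the fibril-associated collagens with interrupted triple helices (FACIT), 4 chains of the basement membrane collagen IV, 3 chains of collagen VI, 4 transmembrane chains, 2 multiplexins and 4 others. The annotation holds 44 such symbols, and the other 9 (*Col4a3*, *Col4a4*, *Col6a4*, *Col6a5*, *Col6a6*, *Col10a1*, *Col19a1*, *Col20a1* and *Col28a1*) were not analysed here. DP RNA came from the first molars of C57BL/6J mice at postnatal day 7 (P7). Osterix-Cre controls gave 4 libraries, and *Tgfbr2cko* mice, labelled Osterix-Cre:Tgfbr2f/f, gave the other 4. Both genotypes carry the Cre recombinase, which the Osterix promoter drives in the mesenchyme that makes odontoblasts and bone cells, so the other cells of the pulp keep the receptor gene. The left and right molars were combined before RNA was extracted, and the label of a library does not say how many mice it stands for.

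Collagens are proteins of 3 chains wound around each other, and each chain repeats a triplet that begins with glycine. Fibrillar collagens assemble into the fibers of dentin, bone and soft connective tissue. FACIT collagens sit on those fibers, collagen IV forms the sheet under epithelia and around vessels, and collagen VI forms beaded filaments around cells. Transmembrane collagens are anchored in the cell surface. Odontoblasts, the cells that line the pulp, secrete a matrix made mostly of type I collagen that becomes dentin, and signaling by transforming growth factor β (TGFβ) through its type 2 receptor, the product of *Tgfbr2*, is known for driving collagen production in connective tissue cells.

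The repeat can be read in the coding sequence of 6 of the 7 altered chains described below, all but *Col9a3*, for which no line is shown. Each line holds the first 90 bases of the longest unbroken run of triplets in the longest coding transcript of GENCODE M21 (GRCm38), 5′ to 3′ on the coding strand, and the capitals mark the glycine codon that opens each of the 10 triplets. The stretch of *Col1a2* spans chr6:4512406-4515516 (exons 6 to 8 of 52, + strand), that of *Col5a1* chr2:27964080-27965295 (exons 14 to 15 of 66, + strand), and that of *Col24a1* chr3:145325728-145337844 (exons 6 to 8 of 60, + strand). For *Col25a1* it lies within chr3:130476369-130476458 (exon 9 of 38, + strand), for *Col17a1* it spans chr19:47664406-47665866 (exons 23 to 25 of 54, − strand), and for *Col7a1* it spans chr9:108978632-108978874 (exons 102 to 103 of 119, + strand).
Col1a2: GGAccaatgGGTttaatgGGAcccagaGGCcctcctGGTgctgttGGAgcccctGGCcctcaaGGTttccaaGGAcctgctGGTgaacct
Col5a1: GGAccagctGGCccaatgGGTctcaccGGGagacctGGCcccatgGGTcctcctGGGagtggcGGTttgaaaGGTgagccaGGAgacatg
Col24a1: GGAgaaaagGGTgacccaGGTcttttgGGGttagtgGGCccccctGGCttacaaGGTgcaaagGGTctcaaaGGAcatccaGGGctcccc
Col25a1: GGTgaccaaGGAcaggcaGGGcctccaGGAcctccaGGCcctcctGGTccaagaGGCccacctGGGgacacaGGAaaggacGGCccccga
Col17a1: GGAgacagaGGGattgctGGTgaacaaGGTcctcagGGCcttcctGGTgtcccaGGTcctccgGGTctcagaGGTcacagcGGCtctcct
Col7a1: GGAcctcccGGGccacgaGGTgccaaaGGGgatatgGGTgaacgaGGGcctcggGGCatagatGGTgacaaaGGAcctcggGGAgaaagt
The first 3 lines are fibrillar chains and the last 3 are not, and what separates them is how far the repeat runs. The longest run held between 216 and 344 triplets in the 11 fibrillar chains, with 339 in *Col1a2* and 338 in *Col5a1*. *Col24a1*, with 216, and *Col27a1*, with 217, were the short ones among them. In the other groups the longest run reached at most 113 triplets, a length that *Col9a1*, *Col9a2*, *Col9a3* and *Col22a1* share, and it held 40 triplets in *Col25a1*, 55 in *Col17a1* and 75 in *Col7a1*.

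Between 8682872 and 13539670 reads per library fell on the 12148 genes, and each of the 35 chains had reads in each of the 8 libraries, the fewest being 18 reads on *Col13a1*; 28 chains had at least 100 reads in every library. Type I collagen marks the mesenchyme of the pulp and was the most abundant collagen in all 8 libraries. Values are given in the order of libraries 49 to 52 for the controls and 53 to 56 for the mutants throughout. *Tgfbr2* itself was not separated by genotype. Its level, in log2 CPM (the log2 of its reads scaled to a common library size), was 7.16, 7.62, 7.64 and 7.52 in the controls against 7.02, 7.00, 7.16 and 7.61 in the mutants (log2 fold change −0.29, SE 0.17, n = 4 per genotype, adjusted p = 0.79 by limma). These counts cover the whole gene, and cells without Cre keep it, so they do not measure the deletion. The library labelled *Tgfbr2cko* 56 had the highest *Tgfbr2* level of the mutants, and its transcripts of the enamel proteins amelogenin and ameloblastin (*Amelx* and *Ambn*) took 18.4% of its reads against 0.347% to 2.74% in the other mutants and 0.326% to 2.14% in the controls. Without it 6 of the 35 chains were altered by the rule described below, against 5.30% of all genes. Of these 6, 5 were among the 7 altered over all libraries, *Col9a1* joined them, and *Col7a1* and *Col9a3* fell under 1.5-fold. The fold changes of 17 of the 28 chains that were not altered over all libraries moved by more than 1.5 times or turned sign without it, so their values are given with and without library 56.

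The mean share of reads on collagen was smaller in *Tgfbr2cko* pulp, with overlap between the genotypes. The 35 chains together held 8.66%, 6.21%, 9.25% and 12.4% of the counted reads in the controls against 4.18%, 5.09%, 7.15% and 3.91% in the mutants (9.14% ± 2.56 and 5.08% ± 1.47, SD, n = 4 each). The mutant of library 55 lay above the lowest control. Most of these reads came from 2 genes, *Col1a1* and *Col1a2*, which encode the chains of type I collagen. Their joint share ran from 5.36% to 11.4% in the controls and from 3.12% to 6.27% in the mutants. The other 33 chains took between 0.706% and 0.988% in the controls and between 0.720% and 0.879% in the mutants, a range inside that of the controls. No test was made on these shares, since they sum over the members. The counted reads include those on *Amelx* and *Ambn*, which were 18.4% of library 56. The RNA is from whole pulp, so fewer cells of a type and less RNA per cell cannot be told apart, here and below.

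**Figure D1:**
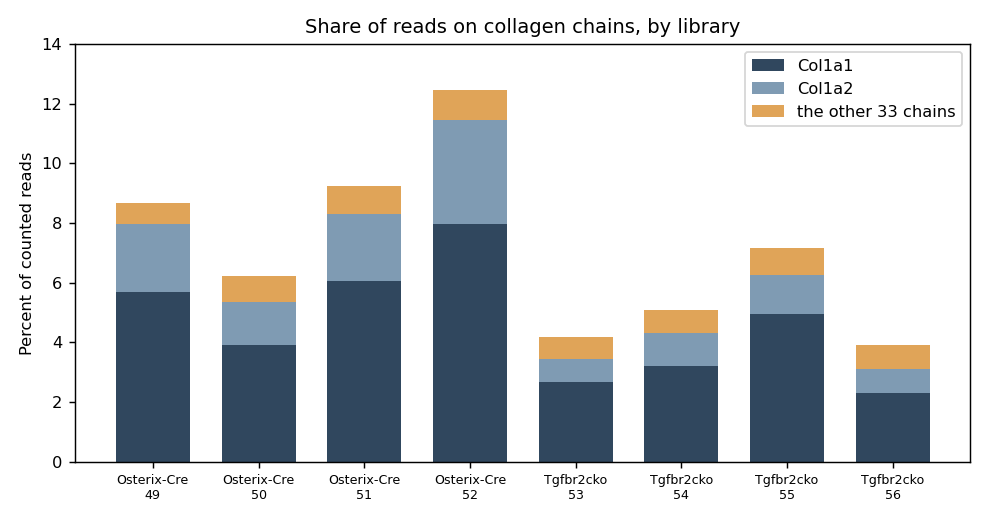
Percent of counted reads (y axis, from 0) on *Col1a1*, *Col1a2* and the other 33 collagen chains in each of the 8 libraries (x axis), stacked. The controls stand between 6.21% and 12.4% and the mutants between 3.91% and 7.15%, and the band of the other 33 chains stays under 1 percent in each library.

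Levels of different chains were compared as RPKM, reads per kilobase of annotated exon at a common library size, since a longer transcript gives more reads. On that scale *Col1a1* led with 8986 ± 2534 RPKM (SD, n = 4) in the controls, followed by *Col1a2* with 1909 ± 676 RPKM. After them came *Col9a2* with 204 ± 94.3 RPKM, *Col11a2* with 199.7 ± 77.2 RPKM and *Col3a1* with 139.8 ± 32.6 RPKM, whose ranges over the control libraries overlapped. *Col5a2* (97.7 ± 30.6 RPKM), *Col6a1* (81.8 ± 17.8 RPKM) and *Col5a1* (79.8 ± 8.90 RPKM) stood next and also overlapped. At the other end, *Col13a1* reached 0.899 ± 0.344 RPKM and *Col8a1* 1.01 ± 0.420 RPKM. A chain's annotated exons include those of minor transcripts, 12426 bases for *Col1a2* against 6563 for *Col1a1*, so these levels are not the numbers of chains that enter a protein.

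**Figure D2:**
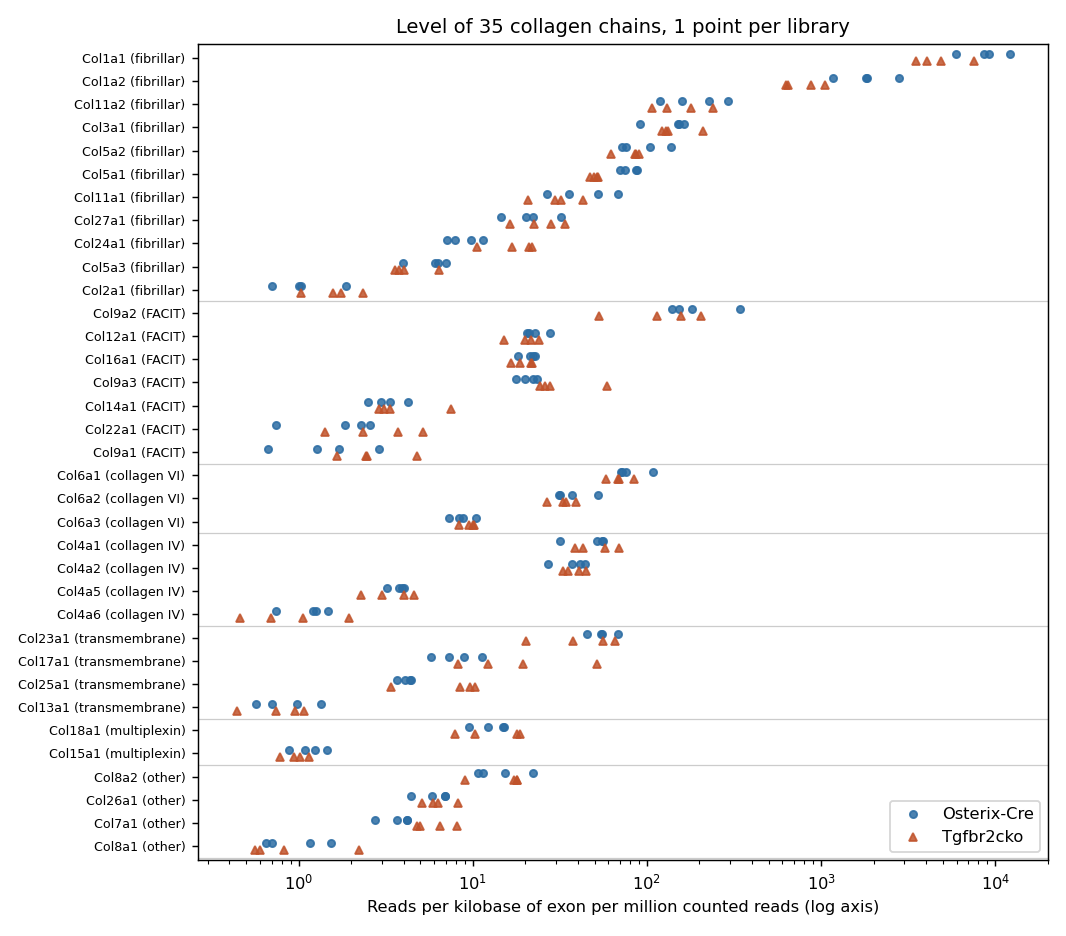
Level of the 35 collagen chains in RPKM on a log axis (x axis), by structural group and in order of the control mean (y axis), with 1 point per library, circles for Osterix-Cre and triangles for *Tgfbr2cko*. *Col1a1*, at 8986 RPKM on average in the controls, stands far to the right, and the fibrillar chains spread the most widely, down to *Col2a1* at 1.15 RPKM.

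To ask which chains differed by genotype, each gene of the table was tested by limma, and a gene counted as altered where p, before adjustment, was under 0.05 and the genotype means were 1.5-fold or more apart. By that rule 7 of the 35 chains were altered, or 20.0%, and 5.77% of all genes were. Lower in the mutants were 2 chains, *Col1a2* and *Col5a1* (3.65% of all genes were altered in that direction), and higher were 5 chains, *Col24a1*, *Col25a1*, *Col17a1*, *Col7a1* and *Col9a3* (2.12% of all genes). None of the 35 chains had an adjusted p under 0.05, against 0.947% of all genes, and the smallest was 0.0602 for *Col5a1* (limma, Benjamini-Hochberg over all genes). Before adjustment 7 chains had p under 0.05, as did 8.38% of all genes, and with library weights in limma 3 chains had an adjusted p under 0.05. The mutant values lay wholly on one side of the control values for 4 chains, *Col1a2* and *Col5a1* below and *Col7a1* and *Col9a3* above, and for 5.27% of all genes. The median log2 fold change was −0.10 over the 35 chains and −0.01 over all genes.

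**Figure D3:**
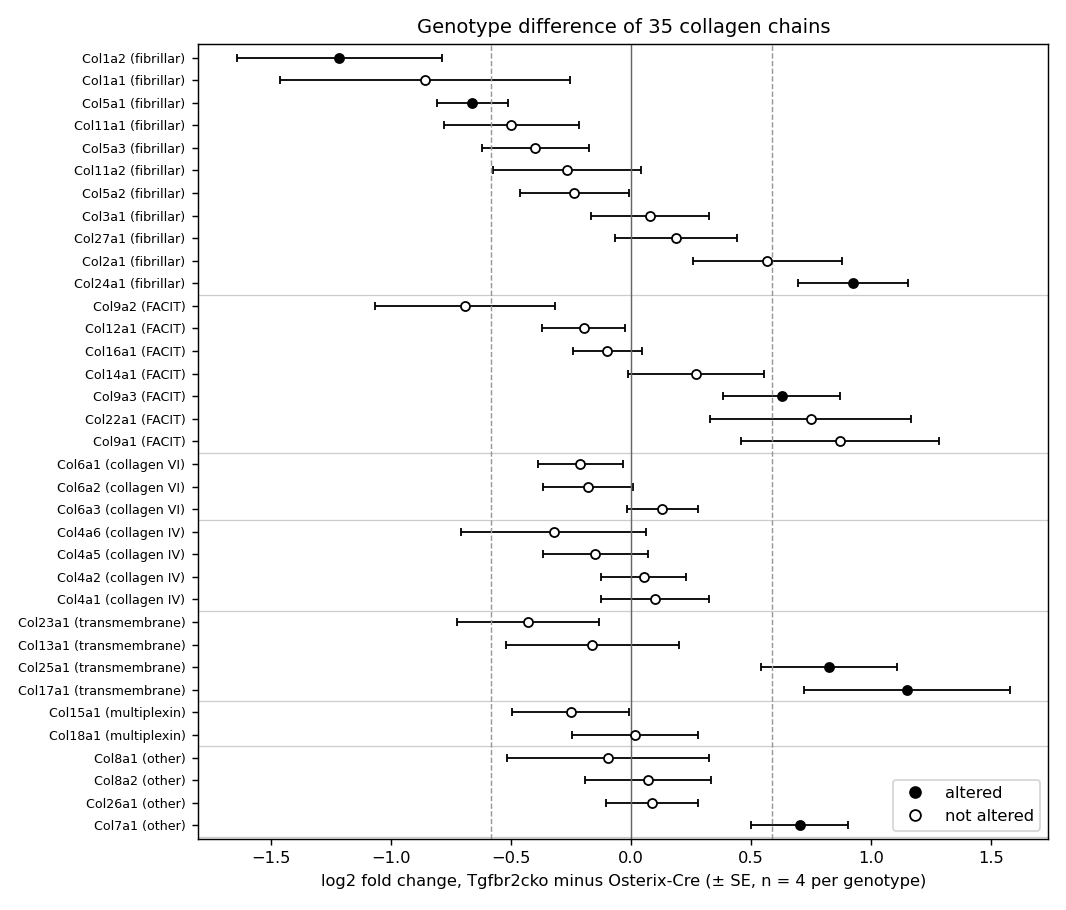
Log2 fold change, *Tgfbr2cko* minus Osterix-Cre, with its standard error (x axis) for the 35 collagen chains by group (y axis). Filled points are the 7 altered chains, 2 on the left and 5 on the right, and dashed lines mark 1.5-fold in each direction.

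Type I collagen, the main fiber of dentin, was lower in the mutants in its α2 chain. *Col1a2* (chr6:4504814-4541544, + strand, GRCm38) had log2 CPM of 14.47, 13.83, 14.47 and 15.09 in the controls against 12.93, 13.41, 13.68 and 12.98 in the mutants. Each mutant was below each control, a 2.32-fold lower level (log2 fold change −1.22, SE 0.43, p = 0.0139, adjusted p = 0.316 by limma; exact permutation p = 0.0286, two-sided, the smallest that 4 against 4 can give). *Col1a1* (chr11:94936224-94953042, + strand), which encodes the α1 chain, had log2 CPM of 15.80, 15.25, 15.88 and 16.28 in the controls against 14.71, 14.97, 15.60 and 14.50 in the mutants. Here the mutant of library 55 stood above the control of library 50, and the difference missed the threshold (log2 fold change −0.86, SE 0.60, p = 0.179 by limma; exact permutation p = 0.0571). For *Col1a1* the outcome depended on the fit. The intensity trend of limma set the prior SD at 1.09 on the log2 scale for genes as abundant as *Col1a1* and at 0.716 for those as abundant as *Col1a2*, while the observed SD of *Col1a1* was 0.423 among controls and 0.478 among mutants. Without the trend its fold change of −0.86 had an SE of 0.27, and with voom observation weights a fold change of −0.85 had an SE of 0.29, and the chain counted as altered in both fits (adjusted p = 0.28 and adjusted p = 0.287 by limma). With quantile normalization the fold change was smaller, −0.38 with an SE of 0.60 (adjusted p = 0.925 by limma).

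Within a library the ratio of the 2 type I chains is free of the scaling to library size. The log2 ratio of *Col1a1* to *Col1a2*, per kilobase, was 2.25, 2.34, 2.34 and 2.11 in the controls against 2.70, 2.48, 2.84 and 2.44 in the mutants. All mutants were above all controls, and on average *Col1a2* RNA was lower by more than *Col1a1* RNA was, by 0.36 on the log2 scale. Of the 8 ratios computed, this one and that of *Col9a1* to *Col9a2* did not overlap between the genotypes. *Col9a1* had as few as 32 reads in a library. No ratio was tested, and no share over other pairs of genes was computed. Between the chains of collagen IV, *Col4a1* and *Col4a2*, the mean log2 ratio was 0.37 in the controls against 0.41 in the mutants, and between *Col6a1* and *Col6a2* of collagen VI it was 1.11 and 1.08.

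**Figure D4:**
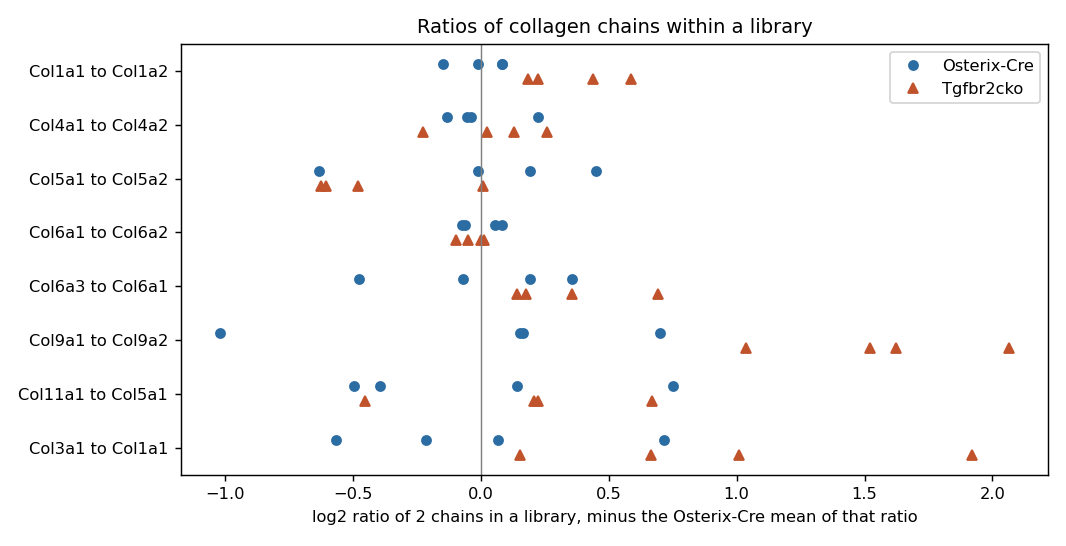
Log2 ratio of a pair of chains within each library, less the control mean of that ratio (x axis), for 8 pairs (y axis), with circles for Osterix-Cre and triangles for *Tgfbr2cko*. The mutants lie to the right of every control for *Col1a1* to *Col1a2* and for *Col9a1* to *Col9a2*, and the points of *Col6a1* to *Col6a2* fall almost on each other.

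Of 6 markers of odontoblasts, the cells that secrete the collagen of dentin, 2 were altered, both lower, where 3.65% of all genes were (*Nes*, nestin, log2 fold change −0.81, SE 0.26, and *Bglap*, osteocalcin, −0.72, SE 0.28). Without library 56 only *Nes* of the 6 was altered, at −0.68 (SE 0.25), where 2.81% of all genes were altered and lower. *Bglap* was then at −0.56 (SE 0.26), under 1.5-fold. *Bglap* was not altered without library 49 or 52 or with library weights either. *Dspp*, the dentin phosphoprotein gene, was at −0.71 (SE 0.43, adjusted p = 0.794 by limma). *Dmp1*, a protein of mineralizing matrix, was at −0.44 (SE 0.51), *Phex* at 0.14 (SE 0.33) and *Smpd3* at 0.06 (SE 0.18), and without library 56 the last 2 were at 0.37 and −0.03. When each library was left out, *Dmp1* ran from −0.90 to 0.09, *Phex* from −0.13 to 0.37 and *Smpd3* from −0.05 to 0.22. The summed level of the 6 markers ran from 8820 to 22374 CPM in the controls and from 6252 to 13429 CPM in the mutants, and none was at 0 in any library. Their part in the type I difference was not tested.

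Type V collagen enters the core of type I fibers and limits their width, and its α1 chain had the smallest p of the family. *Col5a1* (chr2:27886425-28039514, + strand) had log2 CPM of 9.53, 9.21, 9.54 and 9.32 in the controls against 8.80, 8.77, 8.72 and 8.65 in the mutants. The spread within each genotype was narrow (SD 0.163 and 0.0691), and no mutant came near a control. Its level was 1.58-fold lower (log2 fold change −0.66, SE 0.15, p = 0.000644, adjusted p = 0.0602 by limma; exact permutation p = 0.0286). This call held in each of the 19 alternative fits, with fold changes between −0.73 and −0.61. Exons of 2 other genes on the opposite strand cover 1.17% and 1.33% of its exon length, and their part in these counts was not tested. The partner chains did not pass the test: *Col5a2*, the α2 chain, was at −0.24 (SE 0.23, adjusted p = 0.949) and *Col5a3*, the α3 chain, at −0.40 (SE 0.22, adjusted p = 0.737 by limma). *Col5a3* counted as altered in 1 of the 19 fits, without library 55, at −0.59 (adjusted p = 0.424 by limma), and was at −0.57 without library 49.

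The other fibrillar chains followed neither *Col1a2* nor *Col5a1* as a group. *Col3a1*, the chain of the fine fibers of soft tissue, was at 0.08 (SE 0.25, adjusted p = 0.998 by limma) and at −0.10 (SE 0.21) without library 56. *Col11a1* and *Col11a2*, chains that join type V in fibers and are best known from cartilage, were at −0.50 (SE 0.28, adjusted p = 0.747) and −0.27 (SE 0.31, adjusted p = 0.971 by limma). When a library was left out, *Col11a1* lay between −0.28 (without library 52) and −0.73 (without library 50) and *Col11a2* between −0.06 and −0.49, without the same libraries. *Col11a1* counted as altered in 3 fits, without library 50, without library 55 and with libraries of 1 title number averaged. Less abundant were *Col27a1*, at 0.19 (SE 0.25), without library 56 at 0.38 (SE 0.23) and without library 50 at 0.0006, and *Col2a1*, the main cartilage collagen, at 0.57 (SE 0.31, adjusted p = 0.725 by limma) with between 62 and 199 reads per library. *Col2a1* counted as altered in the same 3 fits as *Col11a1*. Of 4 cartilage markers only *Sox9* was analysed here; it ran from 164 to 389 CPM in the controls and from 186 to 345 CPM in the mutants.

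*Col24a1*, a fibrillar chain described in bone and developing tissues, was the 1 fibrillar chain that was altered and higher. At chr3:145292472-145552011 (+ strand), it had log2 CPM of 5.92, 5.77, 6.46 and 6.21 in the controls against 7.01, 7.32, 7.39 and 6.33 in the mutants. On the deposited scale the median of all genes was lowest in library 56, at 4.81, against 4.92 to 5.08 in the other libraries. On that scale *Col24a1* in libraries 53 to 55 was above every control, and in library 56 it fell among the controls. The level was 1.90-fold higher (log2 fold change 0.92, SE 0.23, p = 0.00141, adjusted p = 0.0907 by limma; exact permutation p = 0.0571). Without library 56 the fold change was 1.15 (SE 0.18) and the adjusted p 0.0051 (limma).

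*Col25a1* was likewise highest in libraries 53 to 55. It encodes a transmembrane collagen best known from neurons, where its shed part is found in amyloid plaques, and from motor nerves reaching muscle. At chr3:130131501-130599877 (+ strand), its log2 CPM was 5.83, 5.73, 5.82 and 5.57 in the controls against 6.77, 7.06, 6.96 and 5.46 in the mutants. The controls lay within a narrow band, libraries 53 to 55 stood about 1 log2 unit above it, and library 56 was below it. Over all libraries the level was 1.77-fold higher (log2 fold change 0.83, SE 0.28, p = 0.0121, adjusted p = 0.289 by limma; exact permutation p = 0.143). Leaving out library 56 gave a fold change of 1.19 (SE 0.14) and an adjusted p of 0.000805 (limma).

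The chains that lead these results differ in the letters before their start sites. RefSeq promoter windows (GRCm38.p6) matched 27 of the 35 chains and 6 of the 7 altered ones, *Col9a3* having none. The windows of *Col5a1* (chr2:27886175-27886424, + strand), *Col24a1* (chr3:145292222-145292471, + strand) and *Col25a1* (chr3:130180595-130180844, + strand) are shown because these 3 chains had the smallest adjusted p of the family without library 56. Each line is the 250 bases before the RefSeq start, 5′ to 3′. Capitals mark matches of CCAAT, which reads ATTGG on the other strand, of GGGCGG, which reads CCGCCC, of TATAAA, which reads TTTATA, and of CAGAC, which reads GTCTG. None of these overlaps another in the 3 windows. The last is a version of the letters bound by SMAD proteins downstream of TGFβ receptors.
Col5a1: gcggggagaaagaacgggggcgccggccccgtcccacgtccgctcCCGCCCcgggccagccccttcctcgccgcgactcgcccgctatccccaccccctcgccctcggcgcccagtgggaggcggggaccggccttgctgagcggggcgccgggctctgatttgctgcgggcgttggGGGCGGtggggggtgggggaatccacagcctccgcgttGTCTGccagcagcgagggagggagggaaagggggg
Col24a1: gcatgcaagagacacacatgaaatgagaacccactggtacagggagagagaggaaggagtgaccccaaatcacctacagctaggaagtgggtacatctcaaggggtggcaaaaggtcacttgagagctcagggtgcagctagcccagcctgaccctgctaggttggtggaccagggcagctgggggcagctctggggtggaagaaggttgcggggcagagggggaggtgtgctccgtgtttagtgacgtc
Col25a1: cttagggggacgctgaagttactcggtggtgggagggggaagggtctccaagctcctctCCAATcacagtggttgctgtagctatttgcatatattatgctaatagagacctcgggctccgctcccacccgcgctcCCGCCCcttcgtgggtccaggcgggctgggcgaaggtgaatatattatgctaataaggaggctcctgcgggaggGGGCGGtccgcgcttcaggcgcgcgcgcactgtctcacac
*Col5a1* held GGGCGG at 2 places and CAGAC at 1. *Col25a1* held CCAAT at 1 place and GGGCGG at 2, and *Col24a1* none of the 4. These letters are common: of 32851 windows of this length, 33.8% held CCAAT, 32.7% GGGCGG, 12.4% TATAAA and 42.2% CAGAC. Among the 27 matched chains the shares were 44.4%, 66.7%, 14.8% and 48.1%. The *Col25a1* window lies within the gene as GENCODE draws it, which starts further upstream. A match of letters is a description and not a binding site.

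A pair of chains of epithelial attachment was higher in the mutants, with the highest values in the library richest in enamel transcripts. *Col17a1*, a transmembrane chain of the hemidesmosomes that tie epithelium to its basement membrane, lies at chr19:47646344-47692094 (− strand). Its log2 CPM was 5.45, 5.11, 6.09 and 5.75 in the controls against 5.63, 6.21, 6.87 and 8.28 in the mutants. Library 56 stood far above the rest and library 53 among the controls (log2 fold change 1.15, SE 0.43, a 2.22-fold higher mean, p = 0.0192, adjusted p = 0.377 by limma; exact permutation p = 0.0857). *Col7a1*, the chain of the anchoring fibrils under that membrane, lies at chr9:108953586-108984875 (+ strand). It had log2 CPM of 4.81, 5.44, 5.44 and 5.24 in the controls against 5.62, 5.68, 6.06 and 6.38 in the mutants, so that all mutants were above all controls and library 56 was again the highest. Its level was 1.63-fold higher (log2 fold change 0.70, SE 0.20, p = 0.00419, adjusted p = 0.167 by limma; exact permutation p = 0.0286).

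Among the mutants, *Amelx*, *Ambn*, *Enam* and the keratin gene *Krt14* of the enamel organ epithelium were also highest in library 56 and next in library 55. Among the controls, library 49 had the most reads on *Amelx* and *Ambn*, 2.14%. It had the lowest *Col7a1* of all libraries, and its *Col17a1* was below that of libraries 51 and 52. *Krt14* was at log2 CPM 7.06, 7.57, 8.95 and 10.6 in libraries 53 to 56 and at 7.64, 7.01, 7.57 and 7.18 in the controls. The summed level of the 8 markers ran from 4162 to 23458 CPM in the controls and from 4418 to 195660 CPM in the mutants with none at 0 in any library. Of the 8, 1 was altered and lower, against 3.65% of all genes. This was *Klk4*, an enamel protease gene, at log2 CPM of 7.78, 7.26, 7.43 and 7.71 in the controls against 4.2, 4.53, 5.22 and 5.39 in the mutants, with no overlap (log2 fold change −2.71, SE 0.24, adjusted p = 0.000136 by limma). *Amelx* was at 13.54, 10.45, 10.76 and 11.32 in the controls and at 10.99, 10.29, 13.88 and 16.46 in the mutants. Which cells *Klk4* RNA came from was not tested. Without library 56 *Mmp20*, another enamel protease gene, was altered too, at −0.68 (SE 0.31), from −0.38 over all libraries. In that fit 2.81% of all genes were altered and lower. Without library 53 *Mmp20* was at −0.04. With the mean of *Amelx*, *Ambn* and *Enam* added to the model, *Col17a1* was at 0.67 (SE 0.31, adjusted p = 0.519), no longer altered, and *Col7a1* at 0.61 (SE 0.20, adjusted p = 0.292 by limma). Without library 56 they were at 0.64 (SE 0.27, adjusted p = 0.46) and 0.55 (SE 0.19, adjusted p = 0.268 by limma), the latter under 1.5-fold.

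Collagen IX, a FACIT collagen, had chains whose differences were of opposite sign. It decorates the surface of fibers and is built from the products of *Col9a1*, *Col9a2* and *Col9a3*. *Col9a3* (chr2:180597790-180622189, + strand) had log2 CPM of 6.08, 6.41, 6.26 and 6.49 in the controls against 6.54, 6.64, 6.74 and 7.83 in the mutants. On the deposited scale the lowest mutant, library 53, stood just above the highest control, library 52. The median of all genes on that scale was 5.08 in library 53 and 4.92 in library 52. *Col9a3* in library 56 was more than 1 log2 unit above the other mutants. The level was 1.54-fold higher (log2 fold change 0.63, SE 0.24, p = 0.0236, adjusted p = 0.419 by limma; exact permutation p = 0.0286). It was not altered without library 56, at 0.33 (SE 0.14), nor with the enamel genes in the model, at 0.41 (SE 0.21). Of its exon length 6.07% is shared with *Tcfl5* on the opposite strand, and the strandedness of the counting is not given in the sources used here.

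*Col9a2* was the most abundant of the 3 in RPKM and was lower on average, at log2 CPM of 8.76, 10.05, 9.13 and 8.88 in the controls against 9.31, 8.92, 8.47 and 7.35 in the mutants (log2 fold change −0.69, SE 0.37, adjusted p = 0.712 by limma), with the genotypes overlapping. Without library 56, its lowest value, the log2 fold change was −0.30 (SE 0.28), and with the enamel genes in the model it was −0.24 (SE 0.22). It counted as altered in 2 fits, at −0.96 (SE 0.35) without library 53 and at −0.63 (SE 0.20) with libraries of 1 title number averaged. *Col9a1*, with 32 to 215 reads per library, was at 3.12, 3.88, 1.77 and 2.70 in the controls against 4.60, 3.62, 3.66 and 3.08 in the mutants (log2 fold change 0.87, SE 0.41, adjusted p = 0.612 by limma). It counted as altered without library 56, at 1.09 (SE 0.42), and with the enamel genes in the model, at 1.06 (SE 0.43), and was at 0.50 (SE 0.37) without library 51, its lowest value. The log2 ratio of *Col9a1* to *Col9a2* per kilobase ran from −8.07 to −6.35 in the controls and from −6.01 to −4.98 in the mutants, with no overlap. Among the other FACIT chains, *Col12a1* was at −0.20 (SE 0.17), *Col16a1* at −0.10 (SE 0.15), *Col14a1* at 0.27 (SE 0.28) and *Col22a1* at 0.75 (SE 0.42, adjusted p = 0.74 by limma). Without library 56 these 4 were at −0.07, −0.02, −0.05 and 0.46 (SE 0.40 for *Col22a1*, then under 1.5-fold). *Col22a1* counted as altered in 1 fit, without library 53.

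**Figure D5:**
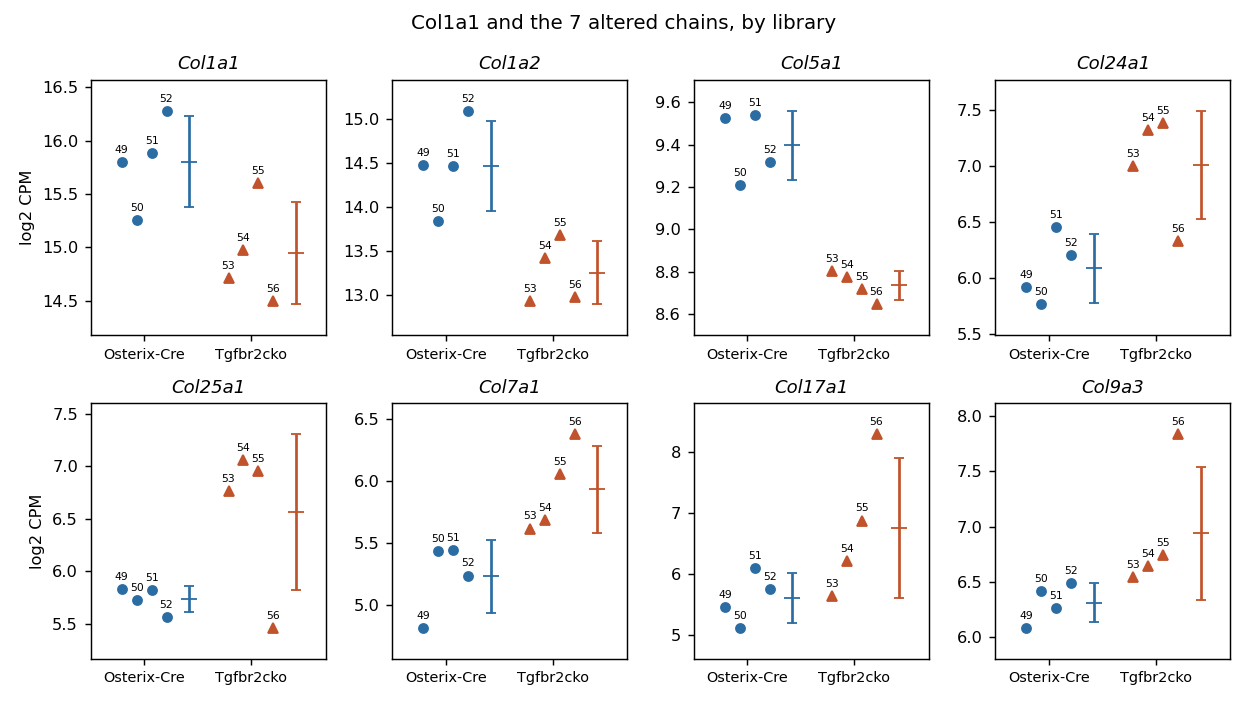
Log2 CPM (y axis, a separate scale in each panel) of *Col1a1* and the 7 altered chains in each library, labelled by library number, with circles for Osterix-Cre, triangles for *Tgfbr2cko* and the mean ± SD (n = 4) beside each group. *Col1a2* and *Col5a1* do not overlap, library 56 falls to the level of the controls for *Col24a1* and *Col25a1*, and it is the highest library for *Col7a1*, *Col17a1* and *Col9a3*.

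The collagens of basement membranes and of the matrix around cells showed small differences. None of the 4 collagen IV chains was altered. *Col4a1* was at 0.10 (SE 0.22) and *Col4a2* at 0.05 (SE 0.18), *Col4a5* at −0.15 (SE 0.22) and *Col4a6* at −0.32 (SE 0.39). *Col6a1*, *Col6a2* and *Col6a3*, the chains that make up collagen VI, were at −0.21 (SE 0.18), −0.18 (SE 0.19) and 0.13 (SE 0.15), and none was altered. Without library 56 the collagen IV chains were at 0.04, 0.02, 0.04 and −0.20 in the order given, and the collagen VI chains at −0.13, −0.08 and 0.10. When each library was left out, *Col4a6*, with 32 to 138 reads per library, ran from −0.69 to −0.0043. Cells of vessels are known to make much of the collagen IV, and of 5 mural cell markers 2 were altered, both lower, where 3.65% of all genes were. These were *Rgs5*, at −0.83 (SE 0.16), and *Pdgfrb*, at −0.69 (SE 0.23). Without library 56 *Rgs5* was at −0.77 (SE 0.16) and still altered, *Pdgfrb* was at −0.48 (SE 0.19), under 1.5-fold, and *Acta2* was altered, at −1.25 (SE 0.28) from −0.54, where 2.81% of all genes were altered and lower. *Pdgfrb* was not altered without library 50 or with the enamel genes in the model either. Another marker, *Cspg4*, was at 0.26 (SE 0.16). The sum of the 5 ran from 406 to 540 CPM in the controls and from 294 to 380 CPM in the mutants. Of 5 endothelial markers 1, *Tek*, was altered and lower, at −0.64 (SE 0.17), beside the same 3.65% of all genes, but it was not altered without library 50. *Emcn* was at −0.42 (SE 0.14), under 1.5-fold. Both had no overlap between the genotypes, as did 5.27% of all genes. *Pecam1*, *Cdh5* and *Kdr* were at −0.28, −0.27 and −0.24. The sums of the 5 endothelial markers ran from 212 to 291 CPM in the controls against 174 to 227 CPM in the mutants. None of these markers was at 0 in any library, and their part in the collagen IV levels was not tested.

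The remaining chains were not altered. The multiplexins, whose cut ends include endostatin, were at 0.02 (SE 0.26) for *Col18a1* and −0.25 (SE 0.24) for *Col15a1*. *Col23a1* and *Col13a1*, the other transmembrane chains, were at −0.43 (SE 0.30) and −0.16 (SE 0.36), and *Col8a1*, *Col8a2* and *Col26a1* were at −0.10, 0.07 and 0.09. Without library 56 *Col18a1* was at −0.15 (SE 0.26), *Col23a1* at −0.09 (SE 0.20), *Col8a1* at −0.54 (SE 0.33) and *Col8a2* at 0.31 (SE 0.22), while *Col15a1*, *Col13a1* and *Col26a1* moved by less than 1.5 times. *Col23a1* counted as altered in 1 fit, without library 53. Over the 28 chains that were not altered the log2 fold changes ran from −0.86 for *Col1a1* to 0.87 for *Col9a1*, and 4 of them, these 2 with *Col9a2* and *Col22a1*, were at least 1.5-fold apart without passing the test. Of the 28, 8 counted as altered in at least 1 of the 19 other fits.

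A collagen chain needs enzymes and partners to become a fiber, and 44 of 48 such genes listed by role were analysed. Of these 2 were altered, both lower and both crosslinking enzymes, a count near what the 5.77% of all genes would give. None had an adjusted p under 0.05, and 7 had p under 0.05 before adjustment, as did 8.38% of all genes (limma). Without library 56 the count was 5, with *P4ha1*, *Dcn* and *Pcolce2* beside the same crosslinking enzymes, against 5.30% of all genes. Their median log2 fold change over all libraries was −0.08. *Lox*, the lysyl oxidase that links collagen molecules, was at log2 CPM of 8.18, 8.07, 8.56 and 9.25 in the controls against 7.21, 7.67, 7.68 and 6.99 in the mutants. *Loxl3*, a related oxidase, was at 7.26, 7.23, 7.62 and 7.40 against 6.49, 6.91, 6.78 and 5.87. For both, each mutant was below each control, with log2 fold changes of −1.13 (SE 0.25, adjusted p = 0.0546 by limma) and −0.87 (SE 0.21, adjusted p = 0.0756 by limma). The other 3 crosslinking genes were not altered. *Loxl1* was at −0.27 (SE 0.27) and *Loxl4* at 0.07 (SE 0.36). *Loxl2* was higher on average, at 0.56 (SE 0.26, adjusted p = 0.61 by limma), and was altered in 2 of the 19 other fits, without library 51 or 54.

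None of the 15 genes of collagen hydroxylation, glycosylation and folding was altered, among them *Serpinh1*, the collagen chaperone, at −0.18 (SE 0.23, adjusted p = 0.986 by limma). *P4ha1*, a catalytic subunit of prolyl hydroxylase, was higher on average and just under 1.5-fold, at 0.58 (SE 0.20, adjusted p = 0.321 by limma), and it was altered in 9 of the 19 other fits, at 0.73 (SE 0.18) without library 56. Among 9 genes of procollagen secretion and processing none was altered either. *Creb3l1*, a transcription factor of the secretory pathway that acts on type I collagen genes, had no overlap between the genotypes at −0.45 (SE 0.18, adjusted p = 0.454), and *Bmp1*, the protease that trims the C-terminal end of fibrillar procollagens, was at −0.54 (SE 0.20, adjusted p = 0.338 by limma), both under 1.5-fold. Without library 56 they were at −0.26 (SE 0.13) and −0.38 (SE 0.16), and *Bmp1* was altered without library 53. *Adamts3*, a protease of the N-terminal end, was at −0.53 (SE 0.22), and at −0.33 (SE 0.18) without library 56, and was altered without library 53 or 55. *Pcolce2*, an enhancer of C-terminal processing, was at −0.47 over all libraries and at −1.12 (SE 0.33, adjusted p = 0.174 by limma) without library 56. Leaving out library 53 instead, where *Pcolce2* was lowest, brought it to −0.03. Depth limits this gene too, its lowest count being 23 reads. The 8 collagen receptors and the 7 fibril partners held no altered gene. Of the receptors, *Itga2* was at 0.88 (SE 0.42, adjusted p = 0.616 by limma) and was altered in 5 of the 19 other fits. *Mrc2* was at −0.46 (SE 0.28) and was altered in 2, without library 49 or 55. Among the partners *Dcn*, which encodes decorin, was at 0.52 (SE 0.23, adjusted p = 0.57 by limma) and at 0.65 (SE 0.20) without library 56, where it was altered.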

How the data were processed

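The authors isolated RNA from DP, amplified it with a 1-ng low-input kit and sequenced the libraries, of which 8 were analysed here. Per the labels and the methods, reads were trimmed with fastp 0.21.0, aligned with HISAT2 2.1.0 to GRCm38.p5 and counted per gene with featureCounts of Subread 2.0.1. Genes were then filtered for reliable quantification and transformed with voom of limma. The deposited values are log2 CPM, counts scaled to a common library size with 0.5 added to each, and the labels name no batch. All 97184 values turned back into whole reads, with a largest distance of 1.42e-05 reads. Amplified reads are not independent molecules, and 3 reads stand for 0.222 to 0.346 CPM, a limit that covers counting error only.

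The deposited log2 values of all 12148 genes entered 1 limma model (limma 3.58.1, R 4.3.3), with a two-sided moderated test, an intensity trend and Benjamini-Hochberg adjustment. A gene was altered at p under 0.05 and at least 1.5-fold. Because the unit is log2, no count model was run. Single genes were also compared by the two-sided exact permutation test over 70 arrangements. The labels do not say that libraries come from separate mice, so p-values measure the spread between libraries, which may be technical. Title numbers repeat within a genotype: libraries 49 and 50 carry 4, 53 and 56 carry 3, and 54 and 55 carry 2, so 3 control and 2 mutant numbers stand behind the 4 libraries of each genotype. What a title number marks is not given in the sources used here. RPKM used the union of annotated exons. Symbols, positions and exons came from GENCODE M21, which matched 12144 genes. The test was first run on simulated data.

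The collagen chains, the gene lists and the tests were chosen with earlier results of these data known. The chains given in full are those altered or with no overlap between genotypes, the 10 with the most reads, and other chains of the same type; those outside this rule that are named were named after their values were seen. From the lists of collagen enzymes and partners, genes altered or with no overlap were named, with *Bmp1*, *Lox* and *Serpinh1*; others were named after their values were seen. Alternatives were fits without the trend, with library weights or voom weights, 4 other scalings, 2 reads added in place of 0.5, a filter at a mean log2 value of 3, an enamel covariate, libraries of 1 title number averaged, other thresholds, and each library left out in turn. In further marker lists, 1 of 5 macrophage genes (*Cd68*, lower) and 1 of 4 bone genes (*Ibsp*, higher) were altered, as were 0 of 5 for pulp mesenchyme, 0 of 2 for Schwann cells, 0 of 3 for periodontal cells and 0 of 4 for erythroid cells, against 3.65% of all genes lower and 2.12% higher. The erythroid genes summed to 568 to 1297 CPM in the controls and 537 to 2242 CPM in the mutants, highest in library 56. *Ibsp* and *Acta2* were also highest in that library, at log2 CPM 7.56 and 6.01. Without library 56 *Cd68* was at −0.37 (SE 0.23) in place of −0.70 and not altered, as in 7 other fits, and *Ibsp* was at 0.77 (SE 0.25) in place of 1.24 and altered. The skeletal muscle genes were not analysed here. Sequences and plots were made with Python 3.11.15 and matplotlib 3.10.9.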

Additional observations from a re-analysis of the deposited data

Results flagged for a closer look

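Within a genotype of 4 libraries, 10 of 108 groups of values had 1 library far from the other 3, by Dixon's criterion at the 95% level; chance gives about 1 in 20 such groups. The library labelled *Tgfbr2cko* 56 accounted for 5 of them. It stood at log2 CPM 7.83 for *Col9a3*, where the other mutants ran from 6.54 to 6.74, at 11 for *Col3a1*, where they ran from 10.2 to 10.3, at 5.71 for *Col14a1*, where they ran from 4.35 to 4.55, at 5.34 for *Col8a2*, where they ran from 6.28 to 6.34, and at 18.4% of reads on *Amelx* and *Ambn*, where they ran from 0.347% to 2.74%. Osterix-Cre 49 accounted for 3. Its log2 CPM of *Col3a1* was 9.81 against 10.5 to 10.6 in the other controls and of *Col4a1* 7.89 against 8.59 to 8.70, and *Amelx* and *Ambn* held 2.14% of its reads against 0.326% to 0.549%. Osterix-Cre 50 was high for *Col6a1*, at 8.89 against 8.28 to 8.38. *Tgfbr2cko* 53 was low for *Col5a2*, at 9.22 against 9.68 to 9.74. None of these chains other than *Col9a3* was altered.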

How the results depend on the processing

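The count of 7 altered chains lay between 5 (without library 49) and 10 (without library 53 or 55) when each library was left out, and between 6 and 8 under 10 of the 11 other fits. Averaging libraries of 1 title number gave 11 chains, at least 2-fold gave 2 and an adjusted p under 0.05 gave 0; over all genes these thresholds gave 256 and 115 in place of 701, and leaving out a library gave 625 to 947. Chains with an adjusted p under 0.05 numbered 3 with library weights, 2 with the enamel covariate and without library 56, 1 under 4 scalings, and 0 otherwise. *Col5a1*, *Col24a1* and *Col25a1* were altered in all 19 fits. *Col1a2* was altered in 18, quantile normalization giving −0.98 (adjusted p = 0.527 by limma), *Col17a1* in 17, *Col7a1* in 16 and *Col9a3* in 12. *Col17a1* was at 0.98 (adjusted p = 0.77 by limma) without library 50, and *Col9a3* missed p of 0.05 under 3 scalings and without library 49. *Col9a1* counted as altered in 7 fits, among them those with title numbers averaged, with the enamel covariate and without library 50 or 56, *Col11a1* and *Col2a1* in 3 each, *Col1a1* and *Col9a2* in 2 each, and *Col5a3*, *Col22a1* and *Col23a1* in 1 each. Chains near 0 changed sign. With library weights *Col3a1* turned to −0.10, *Col14a1* to −0.0135, *Col4a2* to −0.0059, *Col26a1* to −0.0457 and *Col13a1* to 0.0998; with the enamel covariate *Col4a5* turned to 0.0394 and *Col18a1* to −0.16; with title numbers averaged *Col18a1* turned to −0.0161 and *Col8a1* to 0.0656. When a library was left out, *Col3a1* ran from −0.11 to 0.17, *Col4a1* from −0.10 to 0.23, *Col4a2* from −0.10 to 0.14, *Col4a5* from −0.30 to 0.0359, *Col14a1* from −0.0484 to 0.40, *Col18a1* from −0.17 to 0.25, *Col8a2* from −0.0708 to 0.31, *Col26a1* from −0.0545 to 0.19, *Col8a1* from −0.54 to 0.13 and *Col13a1* from −0.35 to 0.0939. The cause of these shifts was not tested. The share of reads on collagen differed by −4.06 percentage points, between −5.04 and −2.96 when a library was left out. The enamel covariate moved the median of all genes to 0.07, and the other scalings left it within 0.01 of 0. No paired analysis was possible because the labels' library numbers are unique and the genotypes share only the title number 2, so a block on it would compare 1 control library with 2 mutant libraries. Depth limits *Col13a1*, *Col15a1*, *Col9a1*, *Col4a6*, *Col8a1*, *Col2a1* and *Col22a1*, which had under 100 reads in some library.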
